A study of Mus musculus with 8 samples.

Results

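The doxycycline response of one engineered mouse thymic epithelial line was measured here: the TEC100.4 line carrying a doxycycline-inducible mutant delta form of the transcription factor TFII-I, which the labels write as TFII-I-δmt. Its members were chosen by sample title and are 4 arrays of the 8 in the series, 2 from cells given doxycycline and 2 from cells of the same line without it. TEC100.4 is an immortalized line that the labels trace to the cortex of the thymus. All arrays came from cells grown in RPMI-1640 with 10% fetal bovine serum and collected after 24 h. The other 4 arrays are the same design in a line carrying a mutant beta form, TFII-I-βmt, again 2 with and 2 without doxycycline. The genotype field calls the treated delta cells overexpressors of the mutant and the untreated ones expressors of the wild-type delta form. The labels do not name the mutation, the promoter or the dose, or whether a line is 1 clone. They also leave unsaid whether replicate arrays were independent cultures, and the p-values then reflect array-to-array spread that may be technical. No cells treated with doxycycline without a mutant transgene were analysed here, so the drug and the induced protein cannot be told apart.

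TFII-I, the product of Gtf2i, is a transcription factor that binds initiator elements and E-boxes in promoters and also relays signals from the cell surface. Its splice forms include beta and delta, and the delta form is known for entering the nucleus after growth factor signalling and acting on the immediate early gene Fos, where beta acts as a repressor in resting cells. In the thymus, cortical epithelial cells support early T cell development, and GTF2I carries a recurrent mutation in human thymic epithelial tumours.

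Gene expression was read as the brightness of 1-colour probes. Each level below is the log2 of the processed signal minus the 75th percentile of its own array, so 0 is the level of a probe brighter than 75% of that array's probes, and 1 unit is a doubling. Levels are set side by side only within a probe. A gene is called changed where its limma p-value was under 0.05 after Benjamini-Hochberg adjustment across the 17768 genes in the test. Untreated delta array 1 had a patch of lost signal: 97 of its 1008 tiles of spots departed from the other arrays, by as much as -4.25 log2 units, against at most 7 tiles on any other array. The 5555 probes lying there were left out on all arrays. Without them the 2 untreated delta arrays correlated at 0.993 across genes, and with them at 0.965, while the treated pair correlated at 0.997. The treated arrays detected 39877 and 40627 probes above background, and the untreated ones 36396 and 36317. The lowest signal counted as well above background was -5.85 and -5.95 on the treated arrays and -5.31 and -5.22 on the untreated arrays, so faint genes were read over a different floor in each group.

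Marker genes were read beside the labelled cortical origin. Of 18 cortical epithelial markers measured, 15 were above background on all 4 delta arrays, among them Prss16 and Ccl25, which encode a thymus-specific protease and the chemokine that draws T cell precursors, and the keratins Krt8 and Krt18. The 3 that were above background on none were Psmb11, the thymoproteasome subunit that defines cortical epithelium, Il7 and Enpep. Foxn1, the master regulator of thymic epithelium, was represented only by probes inside the lost patch. Of 23 medullary markers, 15 were above background on all 4 arrays and 4 on none, and Epcam reached background on 1 untreated array only. Markers of other cell types were often detected too. On all 4 delta arrays, 12 of 15 endothelial, 10 of 14 fibroblast, 13 of 19 myeloid and 12 of 23 lymphocyte markers were above background. Detection above background therefore cannot test the labelled origin. The lymphocyte markers Ptprc, Cd3g, Rag1 and Cd2 were among those above background on no delta array.

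Doxycycline changed 50 of 17768 genes in the delta line, 0.281% of those tested, by limma at an adjusted p under 0.05. Of these, 19 rose (0.107% of genes tested) and 31 fell (0.174%), so 38.0% of the calls were higher. The falls included cell-surface receptors and channels for chemokines and extracellular ATP, a citrullinating enzyme and a galectin, and the rises included a keratin, an interferon-induced membrane protein and a sodium pump subunit. At an unadjusted p under 0.05, 2988 genes differed (16.8%), of which 2083 were higher (11.7%) and 905 lower (5.09%). The median log2 fold change over all genes was 0.04, with 9948 genes above zero and 7820 (44.0%) below. In RNA from a whole culture, fewer cells with a transcript and less of it per cell cannot be told apart. The treated and untreated arrays did not overlap for 10433 genes (58.7%), and for all 50 called genes.

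The call count depends on single arrays and on the variance shared with the beta arrays. It was 3 without treated delta array 1, 6 without treated delta array 2, 597 without untreated delta array 2, 1 without either treated beta array, 3 without either untreated beta array, and 1 when only the 4 delta arrays were fitted. Without untreated delta array 1, which holds the lost patch, 45 genes were called, but only 13 of them were among the 50. Slco1a6 was the one gene called in each of the alternatives that measured it, 19 in number. Treatment also follows the first number of the array's position code on the one slide, so treatment and that position cannot be told apart.

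**Figure D1:**
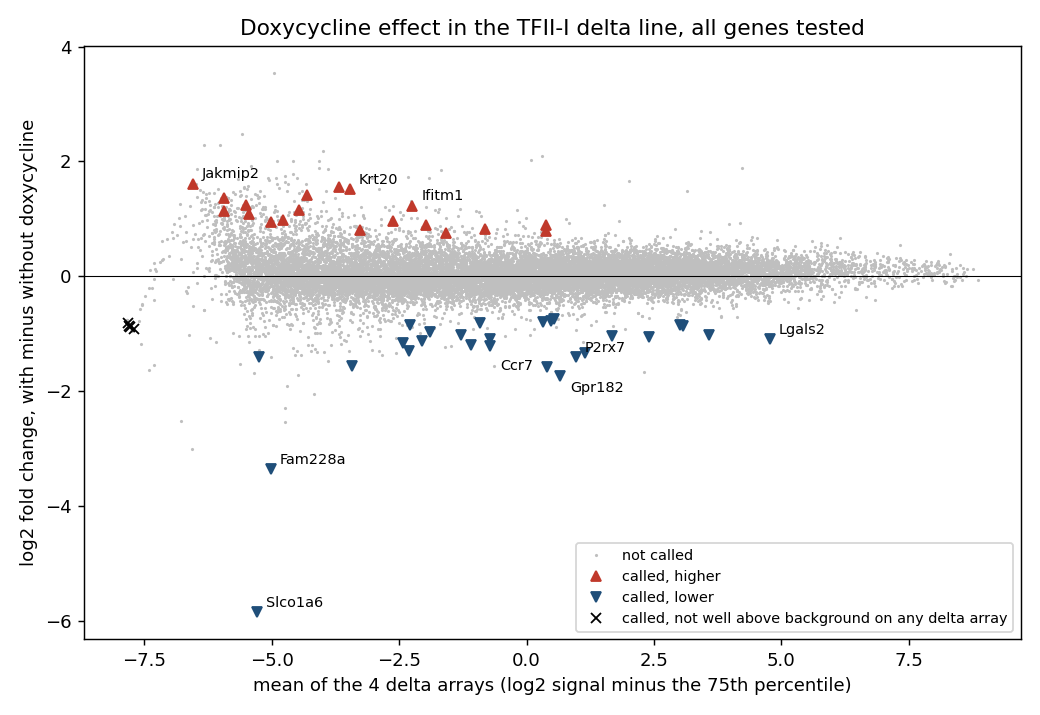
Log2 fold change with doxycycline against the mean level of the 4 delta arrays for all 17768 genes tested; triangles are the 19 genes that rose and the 31 that fell, and crosses are the 4 called genes not above background on any delta array. Slco1a6 and Fam228a lie far below the other falls, and calls are few among the brightest genes.

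The calls thinned out with brightness. With the genes split by level into 5 bins of equal size, the dimmest bin held 17 of the 50 calls and the brightest held 3. The median log2 fold change of all genes was 0.08 in the dimmest bin and 0.07 in the brightest. Of the called genes, 34 were well above background on all 4 delta arrays, 10 of them rises and 24 falls. A further 7 rises were not above background on either untreated array, and 2 falls were not above background on either treated array. The remaining calls included 4 falls, Plppr4, 4931428F04Rik, 5830444B04Rik and Tmprss2, that were above background on no delta array. For these the lowest level recorded on each array was itself lower with doxycycline, -8.18 and -8.27 against -7.65 and -7.57 without, and no fold is given.

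The targeted gene was examined first. Gtf2i read 5.24 and 5.11 without doxycycline and 5.33 and 5.30 with it on its brightest probe. Both treated arrays lay above both untreated ones, but by a log2 fold change of only 0.14 ± 0.11 (SE, n = 2 and 2), which limma did not call (adjusted p = 0.562). The other 2 Gtf2i probes moved by 0.10 ± 0.10 and 0.18 ± 0.17. Which of these probes lies within the transgene was not given in the sources used here, so the level of the induced mutant RNA was not measured. In the beta line the last of these probes moved by 1.32.

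The related family genes were also not called. Gtf2ird1, which encodes a repeat-containing relative of TFII-I, differed by 0.23 ± 0.11 (limma adjusted p = 0.338), and Gtf2ird2 by 0.01 ± 0.14 (limma adjusted p = 0.975). Of 27 measured genes reported as TFII-I partners or targets, none was called, 18 were above and 9 below zero, and their median log2 fold change was 0.13, against 0.04 over all genes. For comparison, 44.0% of all genes tested lay below zero. Fos, the immediate early target of the delta form, read -0.70 and -0.56 without doxycycline and 0.13 and 0.50 with it, a log2 fold change of 0.94 ± 0.14 that missed the threshold (limma adjusted p = 0.0613). The groups of Fos did not overlap, which was so for 58.7% of all genes tested. Egr1, another immediate early gene, read -1.84 and -1.16 without and -0.55 and -0.20 with doxycycline, a difference of 1.12 ± 0.23 (limma adjusted p = 0.119). Kdr, the VEGF receptor and a reported TFII-I target, differed by 0.64 ± 0.10 (limma adjusted p = 0.0679). Usf1, a partner of TFII-I at E-boxes, differed by -0.61 ± 0.20 (limma adjusted p = 0.231). In the beta line Fos differed by 0.97 (limma adjusted p = 0.0374) and Kdr by 0.93 (limma adjusted p = 0.0228), both called. Egr1 differed there by 1.16 and Usf1 by 0.17, neither called. For none of these genes was the difference between lines called (limma adjusted p between 0.526 and 0.973).

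Slco1a6, an organic anion transporter of the cell membrane, showed the most extreme change. Its level was -2.40 and -2.35 without doxycycline and -8.18 and -8.27 with it. Both untreated arrays were well above background and neither treated array was, so only a bound can be given: Slco1a6 fell at least 11.51-fold (limma adjusted p = 2.3e-05). The bound sets the bright group's mean against the lowest signal counted as well above background on each dim array. The gene was above background on no array of the beta line, where it read between -8.10 and -7.35. The other 9 transporters of the Slco family that were measured were not called, and Slco3a1 and Slco2a1 differed by 0.19 and -0.09. Fam228a, a gene of unknown role, read -3.21 and -3.48 without and -6.70 and -6.71 with doxycycline, and fell at least 5.86-fold (limma adjusted p = 0.0157). Normexp takes off a fitted background and then adds an offset, here 50, to each signal. Such an offset shrinks the log2 changes of dim genes. Under normexp the log2 changes were -2.07 for Slco1a6 and -1.31 for Fam228a, both still called. Both changes are smaller than the bounds, which hold for the processed signal only.

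Chemokine receptors held the 2 deepest falls among the called genes well above background on all 4 delta arrays. Gpr182, an atypical chemokine receptor, read 1.58 and 1.46 without doxycycline and -0.16 and -0.27 with it, and fell by 1.73 on the log2 scale (SE 0.20, limma adjusted p = 0.038). Ccr7, the receptor for CCL19 and CCL21 that steers migrating thymocytes and dendritic cells, read 1.20 on both untreated arrays and -0.38 on both treated ones. Ccr7 fell by 1.57 on the log2 scale (SE 0.11, limma adjusted p = 0.0157), and its second probe fell by 2.10. In neither gene did the groups overlap, which follows from the rule that named them. These were the 2 called members of 17 chemokine receptors measured, of which 9 lay above and 8 below zero. Over all genes tested, 0.281% were called and 44.0% lay below zero, and these shares stand beside every list below. Ccrl2 differed the other way, by 0.70 ± 0.17 (limma adjusted p = 0.157).

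None of 23 chemokine ligands was called. Ccl7, a monocyte attractant, read 2.08 and 2.21 without doxycycline and 1.20 and 1.12 with it, a difference of -0.98 ± 0.15 that missed the threshold (limma adjusted p = 0.0657). Cxcl1 and Ccl2, which draw neutrophils and monocytes, differed by -0.60 and -0.43. The ligand list as a whole had 12 members above and 11 below zero, while 44.0% of all genes lay below. Its median of 0.03 turned negative in 7 of 20 alternatives, quantile normalization and the signal before multiplicative detrending among them.

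Signalling by extracellular ATP gave a pair of calls. P2rx7, the ATP-gated cation channel, read 1.70 and 1.63 without doxycycline and 0.27 and 0.24 with it, and fell by 1.41 on the log2 scale (SE 0.10, limma adjusted p = 0.0157). Its other 2 probes moved by -1.27 and -1.55. Panx3, a pannexin channel, read -1.55 and -1.76 without and -2.83 and -3.08 with doxycycline, and fell by 1.30 (SE 0.13, limma adjusted p = 0.032). The groups were apart in both genes, as the naming rule required. Of 17 purinergic receptors and pannexins, 6 were above and 11 below zero, while 44.0% of all genes lay below. Their median was -0.16, the same sign in every alternative. In the beta line the median of this list was 0.11, while P2rx7 and Panx3 were called lower there too. P2ry2 differed by -0.48 and P2rx4 by 0.32, neither called.

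Epithelial differentiation genes moved in both directions. Padi3, which converts arginine to citrulline in proteins of hair and cornified epithelium, read 1.79 and 1.82 without doxycycline and 0.41 and 0.53 with it, and fell by 1.33 (SE 0.11, limma adjusted p = 0.0205). Krt20, a keratin of intestinal lining and Merkel cells, read -4.34 and -4.11 without and -2.64 and -2.77 with doxycycline, and rose by 1.52 ± 0.14 on the log2 scale, a linear fold of 2.87 (limma adjusted p = 0.0263); under normexp the change was 0.93. The groups did not overlap in either gene, as the naming rule required. Padi3 was the 1 called gene of 20 cornified epithelium genes, whose median was -0.14. Krt20 was the 1 called gene of 32 keratins, 16 of which lay above and 16 below zero, while 44.0% of all genes lay below. Krt23 differed by -1.11 ± 0.17 (limma adjusted p = 0.0697), Krt19 by -0.70, Krt8 by -0.25 and Krt18 by 0.27. Of 15 cortical epithelial genes tested and of 17 medullary ones, none was called. Their medians were 0.05 and 0.03. The cortical median turned in sign in 7 of 20 alternatives, normexp background correction and quantile normalization among them. The medullary median turned in 4 of 20, normexp among them.

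**Figure D2:**
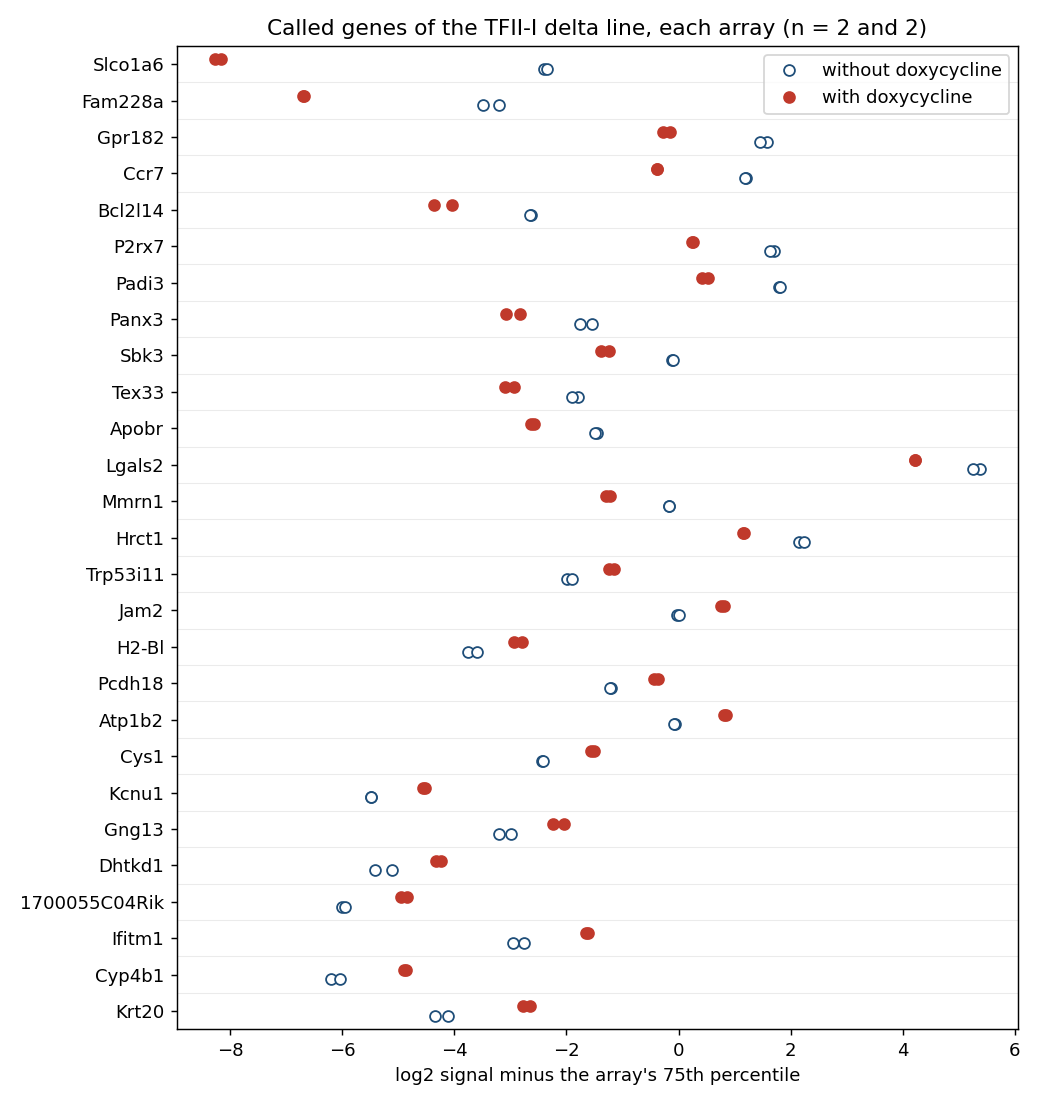
Level on each of the 4 delta arrays, in log2 units above the array's 75th percentile, for the genes named by size of change; open circles are the 2 arrays without doxycycline and filled circles the 2 with it. In every row the open and filled circles are apart, from the fall of Slco1a6 at the top to the rise of Krt20 at the bottom. Except for the bounds, genes were named by size only if their groups did not overlap, so that gap follows from the rule.

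Other named falls included a BCL2 family gene, a lectin and a lipoprotein receptor. Bcl2l14, a BCL2 family member, read -2.63 and -2.65 without doxycycline and -4.36 and -4.05 with it, and fell by 1.57 (SE 0.14, limma adjusted p = 0.0205); under normexp background correction the change was -0.86. It was the 1 called gene among 21 of the BCL2 family, whose median was 0.03, and Bcl2 itself differed by 0.35 (limma adjusted p = 0.213). Lgals2, which encodes galectin-2, a sugar-binding lectin, read 5.38 and 5.25 without and 4.23 and 4.22 with doxycycline, and fell by 1.09 (SE 0.11, limma adjusted p = 0.0332). It was among the brightest genes called. Apobr, a receptor for apolipoprotein B particles, read -1.46 and -1.49 without and -2.58 and -2.64 with doxycycline, and fell by 1.13 (SE 0.09, limma adjusted p = 0.0188). Apobr was the 1 called gene of 15 apolipoprotein and lipoprotein receptor genes.

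The further falls named by size were Sbk3, a kinase gene, at -1.21, Tex33 at -1.16, Mmrn1, which encodes the platelet and endothelial protein multimerin, at -1.09, and Hrct1 at -1.03, with limma adjusted p between 0.0205 and 0.0335. Plvap, which forms the diaphragms of endothelial pores, fell by 0.75 (limma adjusted p = 0.0496). It was the 1 called gene of 12 endothelial markers. Of these, 8 lay above zero, while 44.0% of all genes lay below. The summed level of the endothelial markers, in multiples of the array's 75th percentile, was 17.6 and 19.2 without doxycycline and 21.8 and 22.9 with it. The part of other cell types in the Plvap value was not tested.

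The rises named by size ran from 0.76 to 1.52 on the log2 scale. Ifitm1, an interferon-induced membrane protein, read -2.95 and -2.77 without doxycycline and -1.65 and -1.61 with it, and rose by 1.23 ± 0.10 (limma adjusted p = 0.0205), a linear fold of 2.34. It was the 1 called gene of 27 interferon-stimulated genes, whose median was 0.07, and Oasl1 differed the other way, by -0.68 (limma adjusted p = 0.0922). H2-Bl, an MHC class I gene, read -3.75 and -3.60 without and -2.79 and -2.94 with doxycycline, and rose by 0.81 ± 0.10 (limma adjusted p = 0.0448), a change of 0.51 that was not called under normexp. H2-Bl was the 1 called gene of 23 in antigen processing and presentation, and H2-Ob differed by 0.84 ± 0.16 (limma adjusted p = 0.098). MHC, interferon-induced, transporter and lectin genes have close copies, and whether their probes tell those copies apart was not tested.

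Atp1b2, the beta 2 subunit of the sodium pump, read -0.06 and -0.07 without doxycycline and 0.84 and 0.81 with it, and rose by 0.89 ± 0.10 (limma adjusted p = 0.0332). It was the 1 called gene of 14 sodium pump and FXYD genes. The junctional adhesion molecule Jam2 read -0.02 and 0.01 without and 0.76 and 0.80 with doxycycline, and rose by 0.79 ± 0.10. Pcdh18, a protocadherin, rose by 0.82, Gng13, a G protein gamma subunit, by 0.97, Cys1, a protein of the ciliary membrane, by 0.90, and Trp53i11 by 0.76, with limma adjusted p between 0.038 and 0.048. Each of these genes had both treated arrays above both untreated arrays, as the naming rule required.

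Trp53i11 was the 1 called gene of 27 p53 targets, of which 18 lay above and 9 below zero with a median of 0.07. Over all genes the median was 0.04 and 44.0% lay below zero. Fas and Pmaip1, which promote cell death, differed by 0.69 (limma adjusted p = 0.101) and 0.57 (limma adjusted p = 0.154). Trp53 itself read 2.04 and 2.74 without and 1.74 and 1.22 with doxycycline, a difference of -0.91 ± 0.53 within a wide spread (limma adjusted p = 0.417).

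Some rises started below background, so only bounds can be given, and these hold for the processed signal only. Under normexp background correction none of the 4 named next was called, with log2 changes from 0.32 to 0.45. Dhtkd1, a mitochondrial enzyme of lysine breakdown, rose at least 1.85-fold, Kcnu1, a potassium channel of sperm, at least 1.65-fold, Cyp4b1, a cytochrome P450 that oxidizes fatty acids and foreign compounds, at least 1.30-fold, and 1700055C04Rik at least 1.28-fold, with limma adjusted p between 0.0205 and 0.0448. Cyp4b1 was the 1 called gene of 29 in fatty acid metabolism. Gli1, the transcription factor at the end of hedgehog signalling, was above background on 1 untreated and both treated arrays, read -5.12 and -4.97 without and -3.90 and -3.89 with doxycycline, and rose by 1.15 ± 0.13 (limma adjusted p = 0.0361). Under normexp its change was 0.53 and not called. Gli1 was the 1 called gene of 12 fibroblast and mesenchyme markers, whose summed level was 434 and 437 without and 489 and 490.1 with doxycycline; the part of these markers in the Gli1 value was not tested. Acta2, the smooth muscle actin, differed by 0.42 (limma adjusted p = 0.187).

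No gene of the stress, sterol, histone, ribosomal and respiratory lists was called, and these lists are described by their counts and medians. Among all genes tested, 44.0% lay below zero. Of 30 genes of the ATF4 and mitochondrial stress response, 27 lay above zero, with a median of 0.20 against 0.04 over all genes, and between 0.15 and 0.23 over the alternatives. Atf4, the transcription factor that drives this response, read 7.06 and 7.05 without doxycycline and 7.60 on both treated arrays, a difference of 0.54 ± 0.10 (limma adjusted p = 0.0964). Trib3, one of its targets, differed by 0.47 ± 0.09 (limma adjusted p = 0.111). In contrast, 23 of 27 genes of the endoplasmic reticulum unfolded protein response lay below zero, with a median of -0.12. Manf, a secreted stress protein of that response, read 3.89 and 3.96 without and 3.40 and 3.42 with doxycycline, a difference of -0.52 ± 0.09 (limma adjusted p = 0.0898), and Sdf2l1, a chaperone cofactor, differed by -0.45.

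Cholesterol synthesis and uptake had 20 of 22 members below zero and a median of -0.18, between -0.24 and -0.12 over the alternatives, again with none called. Fdps, which makes farnesyl diphosphate, read 3.34 and 3.27 without doxycycline and 2.54 and 2.65 with it, a difference of -0.71 ± 0.14 (limma adjusted p = 0.104). Cyp51, the sterol demethylase, differed by -0.51 and Insig1, which holds sterol sensing in check, by -0.45, neither of them called. The groups of Fdps did not overlap, which was so for 58.7% of all genes tested.

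Replication-dependent histones had 30 of 36 measured members above zero and a median of 0.24. H1f3, a linker histone, differed by 0.66 ± 0.10 (limma adjusted p = 0.0657) and H2bc4 by 0.66 ± 0.13 (limma adjusted p = 0.113). Histone genes are near-identical copies, and their probes may share signal. Of 51 cytosolic ribosomal proteins, 46 lay above zero with a median of 0.14, and of 41 respiratory chain and ATP synthase subunits, 34 lay above zero with a median of 0.11. Under quantile normalization and the other scalings the medians of these 3 lists stayed above zero, at 0.19 to 0.25 for histones, 0.05 to 0.15 for ribosomal proteins and 0.03 to 0.12 for the respiratory chain. Mitochondrial ribosomal proteins had a median of 0.07. Sdhb, a subunit of succinate dehydrogenase, differed by 0.48 and Cox6c, a cytochrome oxidase subunit, by 0.33. No gene of the DNA replication and mitosis lists was called, and their medians were -0.02 and -0.05.

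Among motility and matrix genes, 18 of 23 in the mesenchymal transition list lay above zero with a median of 0.15 and none called. Of all genes, 44.0% lay below zero. Snai2, a repressor of epithelial genes, read -2.20 and -2.36 without doxycycline and -1.49 and -1.53 with it, a difference of 0.77 ± 0.11 just outside the threshold (limma adjusted p = 0.057). Mmp2, a matrix protease, differed by 0.47 (limma adjusted p = 0.098). Col7a1, the collagen of anchoring fibrils, differed the other way by -0.61 ± 0.09 (limma adjusted p = 0.0613), as did Loxl1, a collagen crosslinking enzyme, by -0.59. In the Notch pathway Mfng and Jag2, a modifier and a ligand of the receptors, differed by 0.64 (limma adjusted p = 0.0791) and 0.50 (limma adjusted p = 0.098), and none of 22 members was called.

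**Figure D3:**
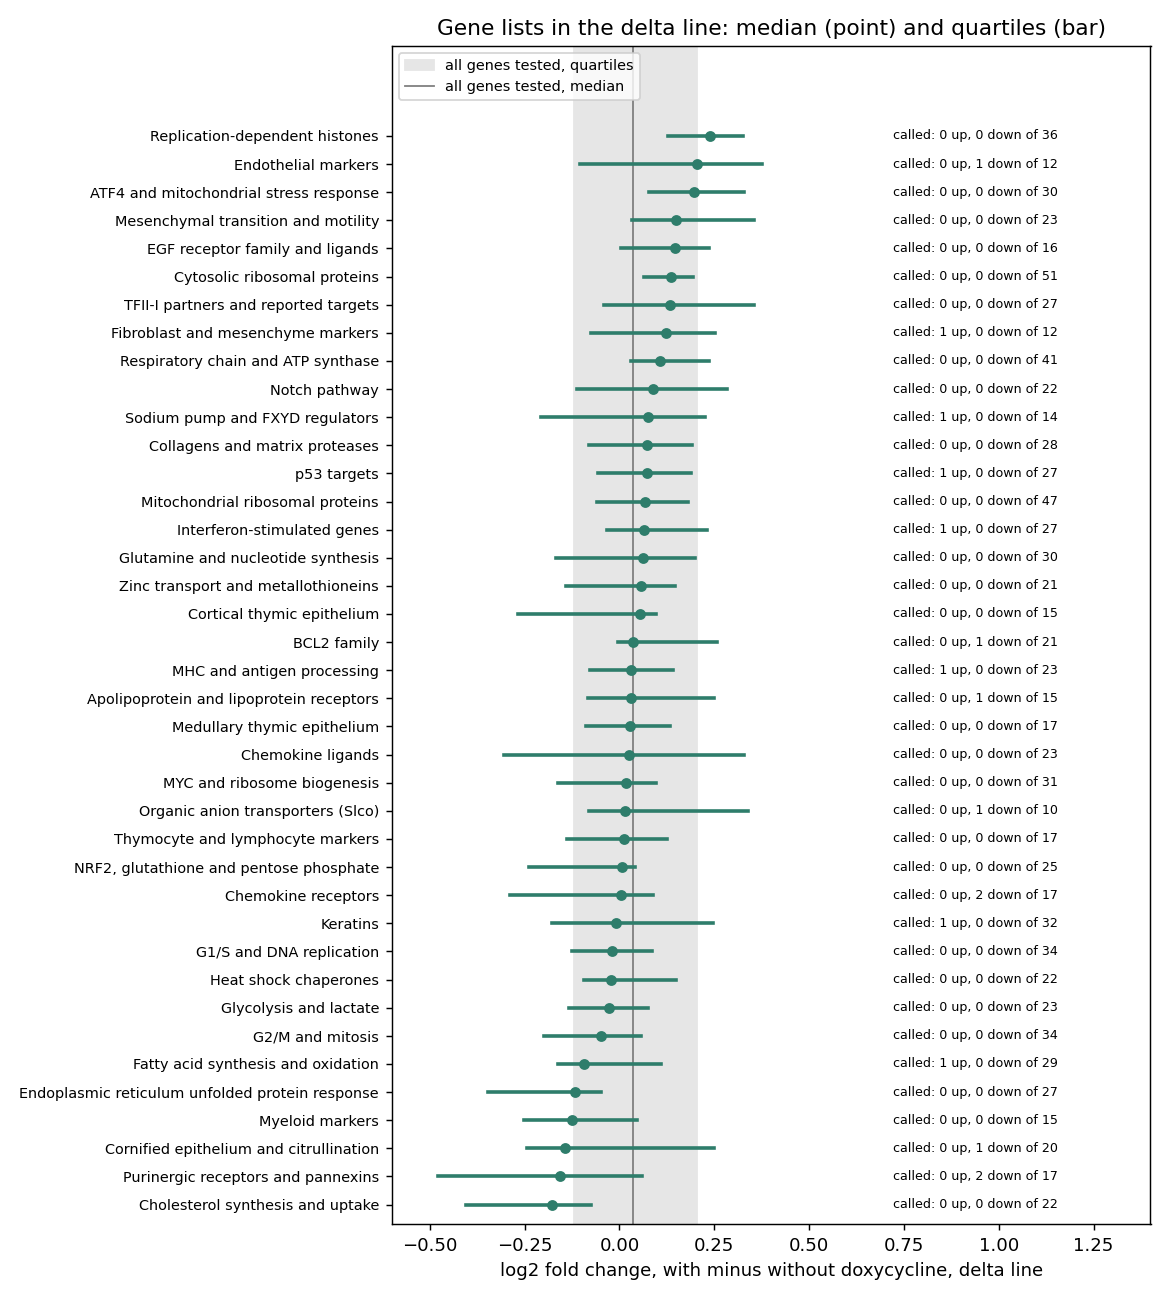
Median (point) and quartiles (bar) of the log2 fold change of each gene list with 5 or more members tested, beside the quartiles of all 17768 genes (grey band) and their median of 0.04 (grey line); the right-hand text counts members called. Histone and ATF4 genes lie to the right of the line and cholesterol and unfolded protein response genes to the left, with no called member in any of these 4 lists.

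The same treatment of the beta line called 318 of 17768 genes (1.79%), with no control arrays shared between the lines. Of the 50 genes called in the delta line, 33 were called in the beta line too, 31 of them with the same sign, which is 62.0% of the delta calls and 9.75% of the beta calls. A further count, 46 of 50, had the same sign in both lines whether called or not. The same count over all genes tested was not made, so this one has no background beside it. Both lines were tested in the same fit with a shared variance, and treatment followed the position code in both. The chemokine receptors and the ATP channel fell in both lines. In the beta line Gpr182 fell by 2.35 on the log2 scale, Ccr7 by 2.09 and P2rx7 by 1.98, beside 1.73, 1.57 and 1.41 in the delta line. None of these 3 differences between lines was called (limma adjusted p between 0.526 and 0.539). By list, the beta medians were -0.28 for cholesterol synthesis and uptake and 0.40 for histones. They were 0.14 for the ATF4 response and -0.01 for the unfolded protein response, against 0.03 over all genes. Differences between lines in these medians were not tested.

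The 2 genes called in opposite directions were Cd209f and Tmprss2. Cd209f, a C-type lectin, fell by 1.41 in the delta line, where both untreated arrays and 1 treated array were above background; under normexp this change was -0.48 and not called. In the beta line it was called higher, but neither untreated beta array was above background, so no size is given for that rise or for the difference, which limma did not call (adjusted p = 0.066). Tmprss2 was above background on no delta array. The single gene whose response differed between lines by limma was Slco1a6, 0.00563% of those tested (limma adjusted p = 0.000427). Slco1a6 was above background only in the untreated delta cells, so its change in the beta line was not measurable and no size is given for the difference. Trp53i11, Bcl2l14, Fam228a, Kcnu1, Dhtkd1 and Gli1 were among the delta calls not called in the beta line, and for none of them was the difference itself called. Bcl2l14 and Gli1 lay just outside the threshold there, at -0.78 (limma adjusted p = 0.0503) and 0.66 (limma adjusted p = 0.0595), and Trp53i11 differed by 0.09. Fam228a and Dhtkd1 were above background on no beta array, and Kcnu1 on 1.

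**Figure D4:**
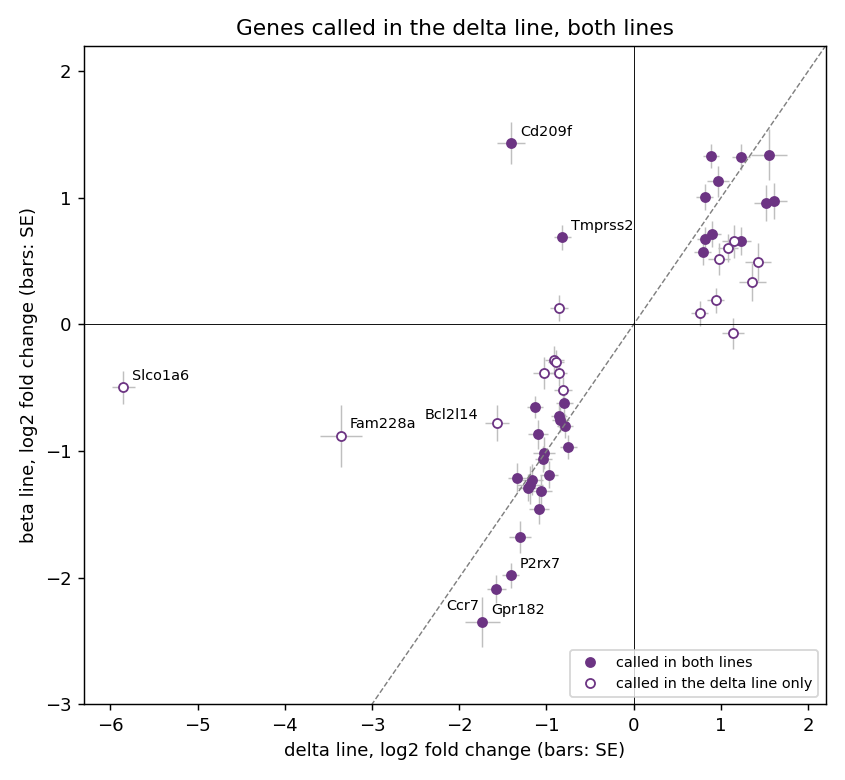
Log2 fold change in the delta line (x axis) and the beta line (y axis) for the 50 genes called in the delta line, with SE bars; values of genes not above background, such as Slco1a6 in the beta line, are fitted near the floor of the arrays and have no measured size. Filled circles were called in both lines and the dashed line marks equal change. Ccr7, P2rx7 and Gpr182 lie below the line at the lower left, Slco1a6 and Fam228a far to the left, and Cd209f and Tmprss2 at the upper left.

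The promoters of called genes were searched for sequences that TFII-I proteins are known to bind: the E-box CACGTG, and GGATTA, which is bound by the repeat domains of the relative encoded by Gtf2ird1. Both strands of the 250 bases before each RefSeq transcription start were read (build GRCm38.p6), and promoters were listed for 34 of the 50 genes. The E-box lay in 1 of these 34 genes, against 8.42% of the 14019 genes tested with a promoter listed. GGATTA lay in 6 of 34, or 17.6%, against 6.69%: the falls 2610528A11Rik, Lgals2, Phf11d and Plac8, and the rises Eaf2 and Ifitm1. Neither motif contains the other. They were chosen with the values known, and a match describes the sequence alone. Lgals2 and Ifitm1 are shown because they are the named fall and rise with GGATTA, in capitals, and Slco1a6 because it changed most and holds neither motif. They lie at chr15:78855530-78855779 on the minus strand, chr7:140967826-140968075 on the plus strand and chr6:142186150-142186399 on the minus strand.
Lgals2: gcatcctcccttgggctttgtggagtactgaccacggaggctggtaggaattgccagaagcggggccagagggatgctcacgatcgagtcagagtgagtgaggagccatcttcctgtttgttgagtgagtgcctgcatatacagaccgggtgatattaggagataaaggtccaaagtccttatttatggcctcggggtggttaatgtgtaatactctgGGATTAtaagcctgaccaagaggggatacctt
Ifitm1: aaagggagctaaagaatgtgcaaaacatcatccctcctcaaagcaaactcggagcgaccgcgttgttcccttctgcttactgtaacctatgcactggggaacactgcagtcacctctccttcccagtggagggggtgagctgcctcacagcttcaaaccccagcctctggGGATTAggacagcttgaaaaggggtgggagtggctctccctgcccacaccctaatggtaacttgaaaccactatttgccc
Slco1a6: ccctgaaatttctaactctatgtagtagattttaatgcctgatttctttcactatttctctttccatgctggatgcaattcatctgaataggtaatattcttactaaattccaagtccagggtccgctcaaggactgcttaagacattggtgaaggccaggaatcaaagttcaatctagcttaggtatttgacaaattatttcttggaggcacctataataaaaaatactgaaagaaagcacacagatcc

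Some genes lay close to the threshold. Just inside were Trp53i11 at an adjusted p of 0.048 by limma and Gm41386 and Plvap at 0.0496. Just outside were Kcnk1, a potassium channel, at -0.77 (limma adjusted p = 0.0502), Iigp1, an interferon-inducible GTPase, at 2.28 (limma adjusted p = 0.0514), Tex101 at 1.06 (limma adjusted p = 0.0514), Tyrobp, a myeloid adaptor, at -0.67 (limma adjusted p = 0.0533) and Tns4 at -1.14 (limma adjusted p = 0.054). Of 6 called genes with several probes kept, the probes of 1, Lrmda, disagreed in sign. Its probes moved by -1.12, -1.03 and 0.65, the last one faint.

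**Figure D5:**
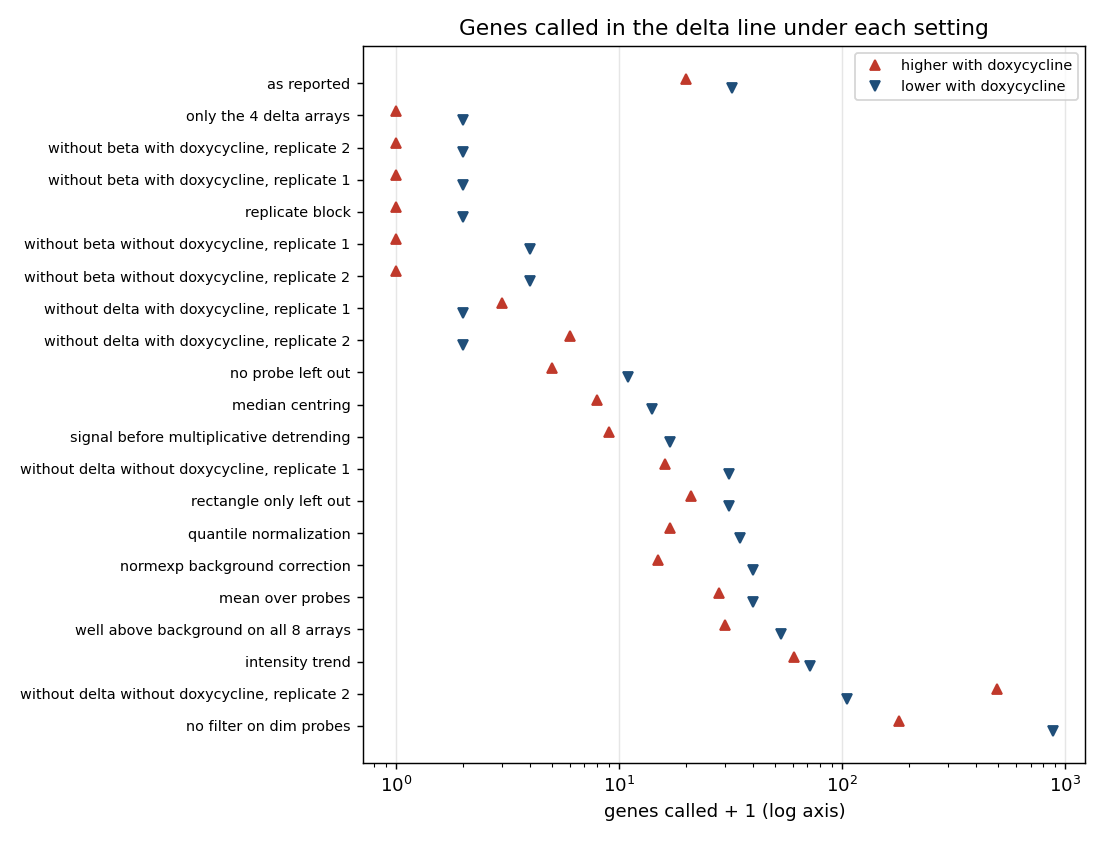
Number of genes called higher (red) and lower (blue) with doxycycline in the delta line, plus 1 on a log axis, as reported (top row) and under each alternative. Counts run from 1 in all, when only the 4 delta arrays were fitted, to 1059 with no filter on dim probes, against the reported 50.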

How the data were processed

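RNA of 8 samples (200 ng each) was labelled for 1-colour Agilent arrays. The deposited files are Agilent scanner output, whose headers name Feature Extraction 11.5.1.1. The processed signal used is an intensity that the authors' software had background-subtracted and detrended, and detection flags came from the same files. The genome build of the design was not used. No spot was saturated. Multiplicative detrending was applied to both untreated delta arrays and to neither treated one, per the file headers.

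Control spots and outlier-flagged spots were left out, spots of a probe were averaged, and log2 values were scaled by each array's 75th percentile. Probes lying in the rectangle of lost signal, or in any tile of 8 by 8 spots of that array departing by over 0.3 log2 units, were removed (9.51% of spots). A probe was kept if both arrays of some group flagged it well above background; 39981 remained, 24611 with a gene name in the files, and the brightest probe stood for its gene. Genes were tested with limma 3.58.1 in R 4.3.3: 4 group means over 8 arrays, 4 residual degrees of freedom, Benjamini-Hochberg adjustment. The script was tested on simulated data. The number of arrays limits the precision.

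Named genes included the largest falls and rises among called genes well above background on all 4 delta arrays (12 at most in each direction). These were taken only if their groups did not overlap, and without locus-number names, so their lack of overlap follows from the rule. Also named were up to 4 bounds in each direction, called list members, and up to 3 members of a list in each direction with the smallest p. Other called genes named in the text were chosen after their values were seen. The members and gene lists were chosen with earlier results of these data known. Alternatives covered scaling, background correction, probe filter and summary, the lost patch, the arrays fitted, the variance trend, a replicate block and each array left out. Mean signal was not in the files, so normexp used median signal, with an offset of 50. The position-code numbers of the arrays did not pair them: deviations of same-numbered arrays correlated at 0.0501 in the delta and 0.0393 in the beta line.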

Additional observations from a re-analysis of the deposited data

Results flagged for a closer look

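Slco1a6 stood out because its doxycycline effect differed between the delta and beta lines by limma's test of that difference. The fitted difference, delta minus beta, was -5.35 on the log2 scale (limma adjusted p = 0.000427, n = 2 in each of 4 groups). That value rests on 6 arrays that were not above background and is no measured size. With the processed signal, the bound is a fall of at least 11.51-fold in the delta line. Under normexp the log2 change there was smaller, at -2.07. The 2 untreated delta arrays read -2.40 and -2.35, and the other 6 arrays read between -8.27 and -7.35.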

How the results depend on the processing

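The 50 delta calls became 20 with median centring, 14 with no probe left out, 24 with the signal before multiplicative detrending (chosen after seeing the data), 1059 with no filter on dim probes, 81 with all 8 arrays above background, 1 with only the 4 delta arrays and 131 with an intensity trend. Higher calls made up 17.0% with no filter and 26.4% of 53 calls with normexp, against 38.0%. With each array left out in turn the count ran from 1 to 597; the lone array of a group is then assumed to vary like the others. With the replicate block, 1 delta call remained, Slco1a6.

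The single difference between lines became 2 with median centring and 0 by limma with all 8 arrays above background (1672 at an unadjusted p under 0.05) or with an intensity trend (1858 unadjusted), and ran from 1 to 200 with an array left out. The 318 beta calls became 108 with median centring, 483 with normexp, 47 with no probe left out, 126 before multiplicative detrending, 52 with no filter, 683 with all 8 arrays above background, 861 with a trend and 0 by limma with the block (3527 unadjusted), and ran from 2 to 271 with an array left out.

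Gtf2i was not called under any of its alternatives. Signs turned for Plppr4 (0.050), 4931428F04Rik (0.070), Kcnk1 (0.051) and Tmprss2 (0.027) under normexp, for Tmprss2 with no filter (0.66), and for Gtf2ird2 with no probe left out (-0.036) and with arrays left out in turn (-0.14 to 0.16). Over 983 values of called genes under alternatives, 411 stayed called, 568 kept their sign only and 4 turned. Ccr7 passed in 14 of 20 alternatives, P2rx7 and Padi3 in 12 and Gpr182 in 9. The causes were not tested.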

Other observations

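Other called genes of the delta line fall outside the families above and were chosen for description after their values were seen. Apoc1, an apolipoprotein, read 3.41 and 3.59 without and 2.64 and 2.65 with doxycycline, and fell by 0.86 on the log2 scale. Ckb, the brain-type creatine kinase, fell by 0.79, Camk2b, a calmodulin-dependent kinase, by 0.78, Unc13d, a factor of granule release, by 0.85, and Plac8 by 0.81. The limma adjusted p of these 5 genes lay between 0.0332 and 0.0448. None of their groups overlapped, as for all 50 called genes. Ckb, Camk2b and Unc13d were called in the beta line too, with log2 changes of -0.62, -0.80 and -0.72.

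Mal, a proteolipid of membrane sorting, read -4.91 and -5.13 without doxycycline and -3.74 and -3.46 with it, and rose by 1.42 on the log2 scale (limma adjusted p = 0.0332). Under normexp background correction its change was 0.67. Mal was above background on 1 untreated and both treated arrays. Jakmip2, Olfr881 and Eaf2 were also called higher but were above background on neither untreated array, and no fold is given for them.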
